A study of Homo sapiens with 11 samples.

Results

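The let-7 and miR-98 family is the group of 9 mature miRNAs hsa-let-7a-5p, hsa-let-7b-5p, hsa-let-7c-5p, hsa-let-7d-5p, hsa-let-7e-5p, hsa-let-7f-5p, hsa-let-7g-5p, hsa-let-7i-5p and hsa-miR-98-5p. They were taken by name from the 2576 mature miRNAs counted in 11 small RNA libraries of SH-SY5Y cells. All 9 passed the filter on low counts in both experiments. SH-SY5Y is a human neuroblastoma line derived from SK-N-SH and takes on a neuron-like form with all-trans retinoic acid (ATRA). All 4 groups received ATRA for 7 days. In the co-treatment experiment, 10 µM H2O2 was present during these 7 days in 3 libraries, and 3 untreated controls received ATRA alone. In the pre-treatment experiment, 3 libraries came from cells exposed to 10 µM H2O2 for 72 hours, after which it was removed and ATRA was given, and 2 untreated controls received ATRA alone. The study had 3 cultures per group and left out 1 outlying sample, and the third culture of the pre-treatment controls was not analysed here. None of the 9 members was called in either comparison of H2O2 with control with all libraries included, while of the 10 tested 3p arms of the same hairpins 4 fell in co-treatment, where 15.6% of all miRNAs tested were called lower, and 2 fell in pre-treatment, where 9.91% were. The quasi-likelihood test called the same 4 arms in co-treatment and 0 in pre-treatment.

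let-7 miRNAs are known as regulators of developmental timing, and in vertebrates their mature forms accumulate as progenitor cells differentiate, neural progenitors included. A primary transcript is cut by Drosha into a hairpin and by Dicer into a 5p and a 3p strand, and in this family the 5p strand is the one mainly retained by Argonaute proteins. The RNA-binding proteins LIN28A and LIN28B block the processing of most let-7 hairpins. The seed, bases 2 to 8 of the mature strand, directs pairing with target mRNAs, among which RAS genes, HMGA2 and LIN28 itself are textbook examples.

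The mature sequences are shown because the members share their seed and differ by few bases, which is what a read has to resolve. They are from RefSeq (GRCh38.p14), 5′ to 3′, with the seed in capitals, and all 9 members were matched.
hsa-let-7a-5p: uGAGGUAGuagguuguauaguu
hsa-let-7b-5p: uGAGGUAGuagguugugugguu
hsa-let-7c-5p: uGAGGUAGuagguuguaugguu
hsa-let-7d-5p: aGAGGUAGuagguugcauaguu
hsa-let-7e-5p: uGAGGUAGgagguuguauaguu
hsa-let-7f-5p: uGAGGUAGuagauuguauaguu
hsa-let-7g-5p: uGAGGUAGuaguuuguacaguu
hsa-let-7i-5p: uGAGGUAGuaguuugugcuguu
hsa-miR-98-5p: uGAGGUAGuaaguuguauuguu

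Each member is 22 nt long. Relative to let-7a-5p, with positions counted from 1 at the 5′ end, let-7c-5p has A19G, let-7e-5p has U9G and let-7f-5p has G12A, so that each is 1 base away. let-7b-5p has A17G and A19G, let-7d-5p has U1A and U16C, let-7g-5p has G12U and U18C, and miR-98-5p has G11A and A19U. let-7i-5p is the most distant from let-7a-5p, with G12U, A17G, U18C and A19U. let-7b-5p and let-7c-5p also differ from each other by 1 base. A read with 1 error at such a position can be counted for another member, and the share of such reads was not tested.

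The 9 members come from 12 hairpins, given here by exact matches of the mature sequence to GRCh37. let-7a-5p matched 3 places, chr9:96938244-96938265 (+ strand), chr11:122017276-122017297 (-) and chr22:46508632-46508653 (+), which lie in an exon of MIRLET7A1HG, an intron of MIR100HG and an exon of MIRLET7BHG. let-7f-5p matched 2 places, chr9:96938635-96938656 (+) in an exon of MIRLET7A1HG and chrX:53584207-53584228 (-) in an intron of HUWE1. The other 7 members matched 1 place each. let-7b-5p lies at chr22:46509571-46509592 (+) in an exon of MIRLET7BHG, let-7c-5p at chr21:17912158-17912179 (+) in an exon of MIR99AHG, and let-7d-5p at chr9:96941123-96941144 (+) in an exon of MIRLET7A1HG. let-7e-5p lies at chr19:52196046-52196067 (+) in an intron of SPACA6 and let-7g-5p at chr3:52302352-52302373 (-) in an intron of WDR82. let-7i-5p lies at chr12:62997471-62997492 (+) in an intron of MIRLET7IHG and miR-98-5p at chrX:53583260-53583281 (-) in the same HUWE1 host gene as 1 let-7f hairpin.

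The libraries held 5343953 to 8927582 counts, with a median of 7425640. The neuron-enriched miR-128-3p carried most of the summed level of 5 neuronal miRNAs, while miR-124-3p, the defining miRNA of neurons, had 0 to 7 counts in every library. The 2 pre-treatment controls stood apart from each other. Control 1 held 121 CPM (counts scaled to a common library total) of 4 white blood cell miRNAs and control 2 held 12.9 CPM. The other 9 libraries held 10.5 to 23.3 CPM. miR-223-3p, typical of myeloid cells, was at 540 counts in control 1 and 4 in control 2. miR-205-5p, typical of stratified epithelium, was at 1007 and 32 counts. The sum of 6 epithelial miRNAs was 189 and 40.5 CPM, against 42.8 to 56.5 CPM in the other 9 libraries. The other epithelial miRNAs did not share this gap. In controls 1 and 2, miR-200a-3p had 22 and 40 counts, miR-200b-3p 15 and 35 and miR-429 11 and 10. miR-200c-3p had 178 and 131 counts and miR-141-3p 79 and 47. miR-122-5p, a liver miRNA, moved with H2O2 in pre-treatment (99.3 to 235 CPM in controls, 547 to 786 CPM in H2O2 libraries) and overlapped between groups in co-treatment (135 to 278 and 230 to 548 CPM). The summed level of 4 red blood cell miRNAs was low throughout (2.16 to 14.5 CPM), and its highest values were in the pre-treatment H2O2 libraries. There miR-451a and miR-144-5p were above both controls in every H2O2 library. miR-144-3p overlapped between the groups, and so did miR-486-5p, at 8 and 8 counts in controls and 6, 10 and 3 with H2O2. The neuronal sum was lower in the pre-treatment controls (1204 and 1262 CPM) than in the other 9 libraries (1722 to 1970 CPM). Against the pre-treatment H2O2 libraries, miR-128-3p (8016 and 8556 against 13642 to 14814 counts) and miR-9-3p (9 and 31 against 69 to 75) were lower. The list did not move as a whole, since miR-218-5p (300 and 576 against 247 to 467) and miR-9-5p (25 and 35 against 30 to 41) overlapped. The part of these differences in the family's values was not tested.

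Levels of the family are given as CPM after TMM scaling of the libraries of 1 experiment. They were compared within an experiment only, apart from the search for miRNAs of like level at the end of these results. The family took up a large part of each library: 11.9% to 14.5% of all counts in co-treatment controls and 13.1% to 17.9% with H2O2, and 17.8% and 17.1% in the pre-treatment controls against 12.0% to 12.8% with H2O2. let-7b-5p was the 4th most abundant of 790 miRNAs in co-treatment controls and the 3rd of 868 in pre-treatment controls. let-7i-5p, let-7e-5p, let-7g-5p and let-7c-5p were all among the 20 most abundant in both sets of controls, let-7d-5p ranked 45th and 40th, and miR-98-5p, let-7f-5p and let-7a-5p ranked between 77th and 98th.

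In co-treatment controls the order of the means was let-7b-5p at 54060 ± 12175 CPM (SD, n = 3), let-7i-5p at 27344 ± 4563, let-7e-5p at 19263 ± 5010, let-7g-5p at 16111 ± 1412, let-7c-5p at 11831 ± 1607, let-7d-5p at 3458 ± 1122, miR-98-5p at 1458 ± 285, let-7f-5p at 1231 ± 196 and let-7a-5p at 948 ± 354. The ranges of neighbours overlapped for let-7i-5p with let-7e-5p, let-7e-5p with let-7g-5p, miR-98-5p with let-7f-5p and let-7f-5p with let-7a-5p. The ranges of the other neighbours did not overlap. let-7a-5p and let-7f-5p, the only members with more than 1 hairpin, were at the foot of this order. Across all tested miRNAs with a sequence, none of the 27 with 2 or more hairpins in co-treatment exceeded 1746 CPM in controls, whereas 17 of the 673 with 1 hairpin exceeded 10000 CPM. In pre-treatment, the highest of 29 such miRNAs stood at 1428 CPM, and 15 of 739 with 1 hairpin exceeded 10000 CPM. The medians lay the other way. For 2 or more hairpins against 1, they were 48.6 against 10.9 CPM in co-treatment controls and 25.3 against 7.38 CPM in pre-treatment controls. The class with more hairpins was thus not lower as a whole. How reads that match more than 1 place were counted is not given in the sources used here, and its part in these levels was not tested, so the low level of let-7a-5p and let-7f-5p is that of the deposited counts.

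**Figure D1:**
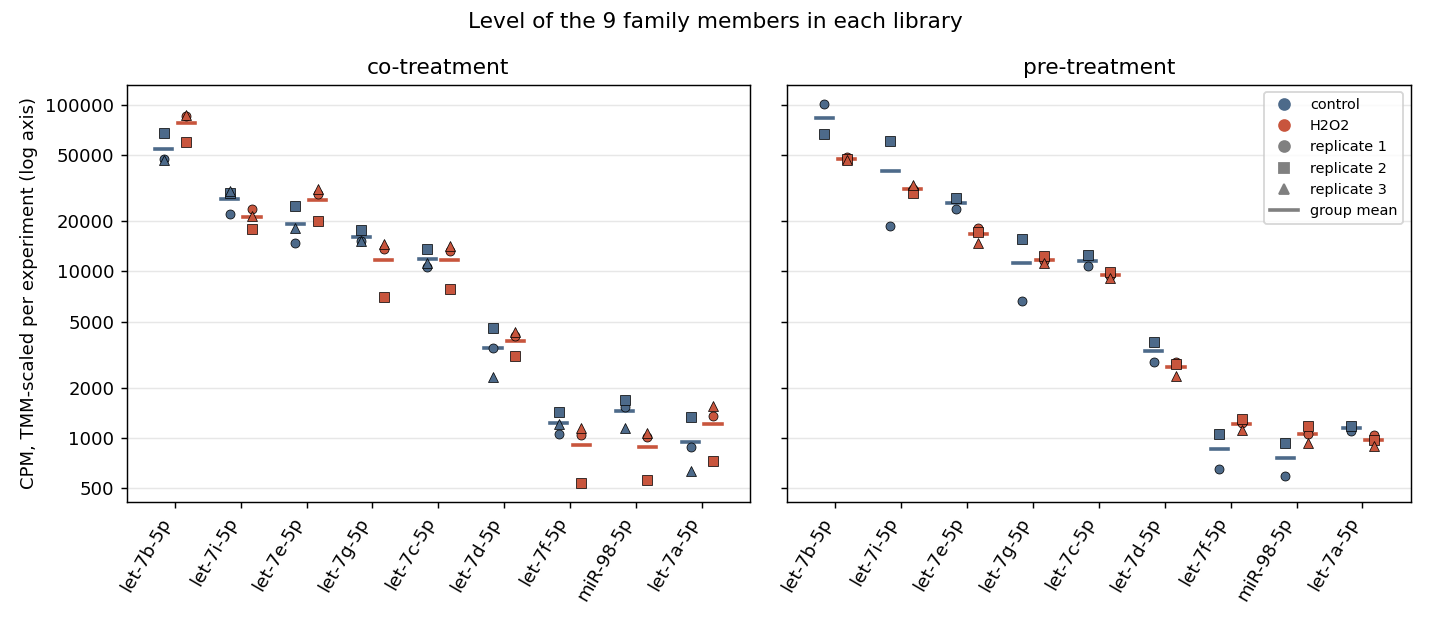
Level of each member in each library, in CPM after TMM scaling within an experiment on a log axis, with co-treatment on the left and pre-treatment on the right. Points are libraries, symbols give the replicate number and bars the group means. let-7b-5p lies highest in every library, at 46546 CPM or more, and the H2O2 replicate 2 of co-treatment is the lowest of its group for all 9 members.

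Shares of the family's own counts do not depend on the scaling and could be set side by side over all 11 libraries. let-7b-5p made up 40.5%, 41.8% and 36.7% of the family in the co-treatment controls and 49.6%, 51.0% and 49.2% with H2O2, without overlap. let-7e-5p was ordered in the same way, with 14.1% ± 1.29 in controls and 17.2% ± 0.501 with H2O2 (SD, n = 3 each), again without overlap. let-7i-5p took 20.3% ± 3.16 in controls and 13.8% ± 1.54 with H2O2, let-7g-5p 12.0% ± 1.08 and 7.35% ± 1.25, and miR-98-5p 1.08% ± 0.211 and 0.553% ± 0.0695, all 3 without overlap. The shares of let-7c-5p (8.76% ± 0.340 and 7.45% ± 0.748) and let-7f-5p (0.909% ± 0.0351 and 0.569% ± 0.101) were also lower in every H2O2 library than in every control. Only let-7a-5p and let-7d-5p overlapped between the groups. Shares add up to a fixed total, so a higher share of let-7b-5p lowers those of the others. In CPM only the groups of miR-98-5p and let-7g-5p did not overlap, beside those of 41.6% of all miRNAs tested.

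In the pre-treatment H2O2 libraries let-7b-5p made up 38.9%, 38.6% and 38.9% of the family, within the range of the co-treatment controls, while let-7i-5p made up 25.5% ± 1.84 and let-7g-5p 9.53% ± 0.459 (SD, n = 3 each). The pre-treatment controls lay far apart for the most abundant members. let-7b-5p made up 61.1% of the family in control 1 and 34.9% in control 2, and let-7i-5p made up 11.2% and 32.1%. let-7a-5p, let-7c-5p, let-7f-5p, let-7g-5p and miR-98-5p were at lower shares in both controls than in every pre-treatment H2O2 library. In CPM, let-7a-5p and let-7c-5p lay the other way, and let-7g-5p overlapped. The groups of 46.0% of all miRNAs tested did not overlap in CPM. The ratio of let-7b-5p to miR-98-5p counts, chosen after the values were seen and not tested, was 30.8, 40.3 and 40.8 in co-treatment controls and 85.0, 108 and 81.6 with H2O2. It was 172 and 71.3 in the pre-treatment controls and at most 50.3 with H2O2, so the order of H2O2 and control libraries was opposite in the 2 experiments.

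**Figure D2:**
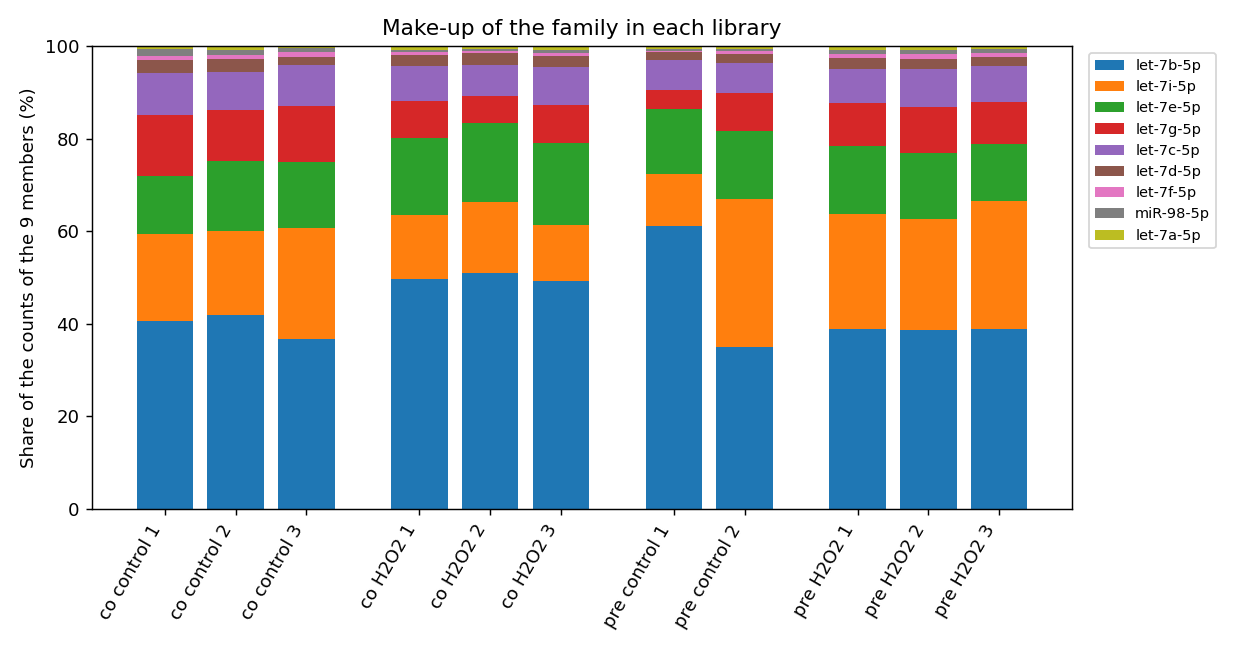
Share of the counts of the 9 members, in percent, taken by each member in each of the 11 libraries, as stacked bars that add up to the family's total. let-7b-5p takes 36.7% to 41.8% in co-treatment controls and 49.2% to 51.0% with H2O2, and the 2 pre-treatment controls stand at 61.1% and 34.9%.

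The co-treatment comparison asked how miRNA levels responded to H2O2 given during differentiation. A miRNA was called at a false discovery rate (FDR) under 0.05 and an absolute log2 fold change (log2FC, H2O2 against control) above 0.6. None of the 9 members was called with edgeR's exact test, whereas 207 of the 790 miRNAs tested were (26.2%), and the quasi-likelihood test also called 0 of 9, beside 22.9% of all miRNAs tested. Without adjustment, 1 member had a p under 0.05, against 40.1% of all miRNAs tested. The median log2FC of the members was -0.01, beside -0.04 for all miRNAs tested, with 4 positive and 5 negative values.

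miR-98-5p came nearest to a call. Its controls stood at 1542, 1692 and 1140 CPM and its H2O2 libraries at 1007, 560 and 1063 CPM. Every H2O2 library lay below every control, by a log2FC of -0.73 ± 0.28 (SE) with an FDR of 0.0595. let-7g-5p was the only other member whose groups did not overlap, at 15331, 17741 and 15261 CPM in controls and 13601, 6991 and 14565 CPM with H2O2 (log2FC -0.46 ± 0.26, FDR 0.233). These are 2 of 9 members, while the groups of 41.6% of all miRNAs tested did not overlap.

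let-7b-5p, the most abundant member, stood at 47526, 68107 and 46546 CPM in controls and 85613, 60275 and 86794 CPM with H2O2. The H2O2 replicate 2 fell within the control range, and the log2FC was 0.52 ± 0.22 with an FDR of 0.142. let-7e-5p had the same layout, with 14852, 24710 and 18229 CPM in controls and 28982, 20132 and 31336 CPM with H2O2 (log2FC 0.48 ± 0.24, FDR 0.195). Without the H2O2 replicate 2, both were called, beside 28.0% of all miRNAs tested, let-7b-5p with a log2FC of 0.76 (FDR 0.0213) and let-7e-5p with 0.74 (FDR 0.0308).

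let-7i-5p was at 22097, 29554 and 30381 CPM in controls and 23836, 18055 and 21527 CPM with H2O2, overlapping by 1 control (log2FC -0.37 ± 0.21, FDR 0.294). let-7c-5p was at 10629, 13656 and 11210 CPM in controls and 13190, 7827 and 14268 CPM with H2O2, and its log2FC was -0.01 ± 0.24. The remaining members were also within the spread of replicates: let-7f-5p had a log2FC of -0.44 ± 0.29, let-7a-5p of 0.35 ± 0.32 and let-7d-5p of 0.15 ± 0.27, with FDRs of 0.289 to 0.742. The summed level of the family, a description with no test, was 117371, 162804 and 126935 CPM in controls and 172696, 118200 and 176567 CPM with H2O2.

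The pre-treatment comparison asked the same for H2O2 removed before differentiation began. Again 0 of 9 members were called with the exact test and 0 with the quasi-likelihood test, beside 15.3% and 1.96% of the 868 miRNAs tested. Only 1 member had an unadjusted p under 0.05, against 28.6% of all miRNAs tested. The members' median log2FC was -0.29 and that of all miRNAs tested -0.19, with 3 positive and 6 negative values. The groups of 7 members did not overlap, which also held for 46.0% of all miRNAs tested.

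let-7b-5p was at 101467 and 66451 CPM in the controls and at 48736, 47337 and 46903 CPM in the H2O2 libraries. All 3 H2O2 libraries lay below both controls, and the H2O2 libraries were much closer together than the controls (log2FC -0.82 ± 0.27, FDR 0.0874). let-7e-5p showed the same order, with 23568 and 27744 CPM in controls and 18326, 17333 and 14757 CPM with H2O2 (log2FC -0.61 ± 0.25, FDR 0.204). let-7c-5p (log2FC -0.29 ± 0.24), let-7d-5p (-0.32 ± 0.26) and let-7a-5p (-0.23 ± 0.24) were also below both controls in every H2O2 library, with FDRs of 0.555 to 0.682.

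let-7f-5p and miR-98-5p lay the other way. let-7f-5p was at 648 and 1058 CPM in controls and 1224, 1302 and 1118 CPM with H2O2 (log2FC 0.51 ± 0.30, FDR 0.399), and miR-98-5p was at 591 and 932 CPM in controls and 1061, 1184 and 932 CPM with H2O2 (log2FC 0.48 ± 0.30, FDR 0.441). Control 2 and H2O2 replicate 3 of miR-98-5p both round to 932 CPM, so that its groups were separated by less than 1 CPM. For let-7i-5p and let-7g-5p the H2O2 libraries lay between the controls: let-7i-5p was at 18617 and 61141 CPM in controls and 31209, 29519 and 33247 CPM with H2O2, and let-7g-5p at 6651 and 15705 CPM in controls and 11612, 12335 and 11165 CPM with H2O2.

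Which pre-treatment control was used decided the members' calls. Without control 1, the exact test called 31.5% of all miRNAs tested and 2 members, both lower, let-7e-5p (log2FC -0.61, FDR 0.00978) and let-7i-5p (-0.85, FDR 6.38e-05). Without control 2, it called 52.6% of all miRNAs tested, a share near that of the members, of which it called 5, let-7b-5p lower (-0.86) and let-7f-5p (1.14), let-7g-5p (1.05), let-7i-5p (0.98) and miR-98-5p (1.07) higher, so that let-7i-5p was called in opposite directions by the choice of control. In these fits the single control left is assumed to vary as the H2O2 libraries do. The summed family level was 166193 and 190500 CPM in controls and 125401, 122676 and 120564 CPM with H2O2, without overlap, and was not tested.

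**Figure D3:**
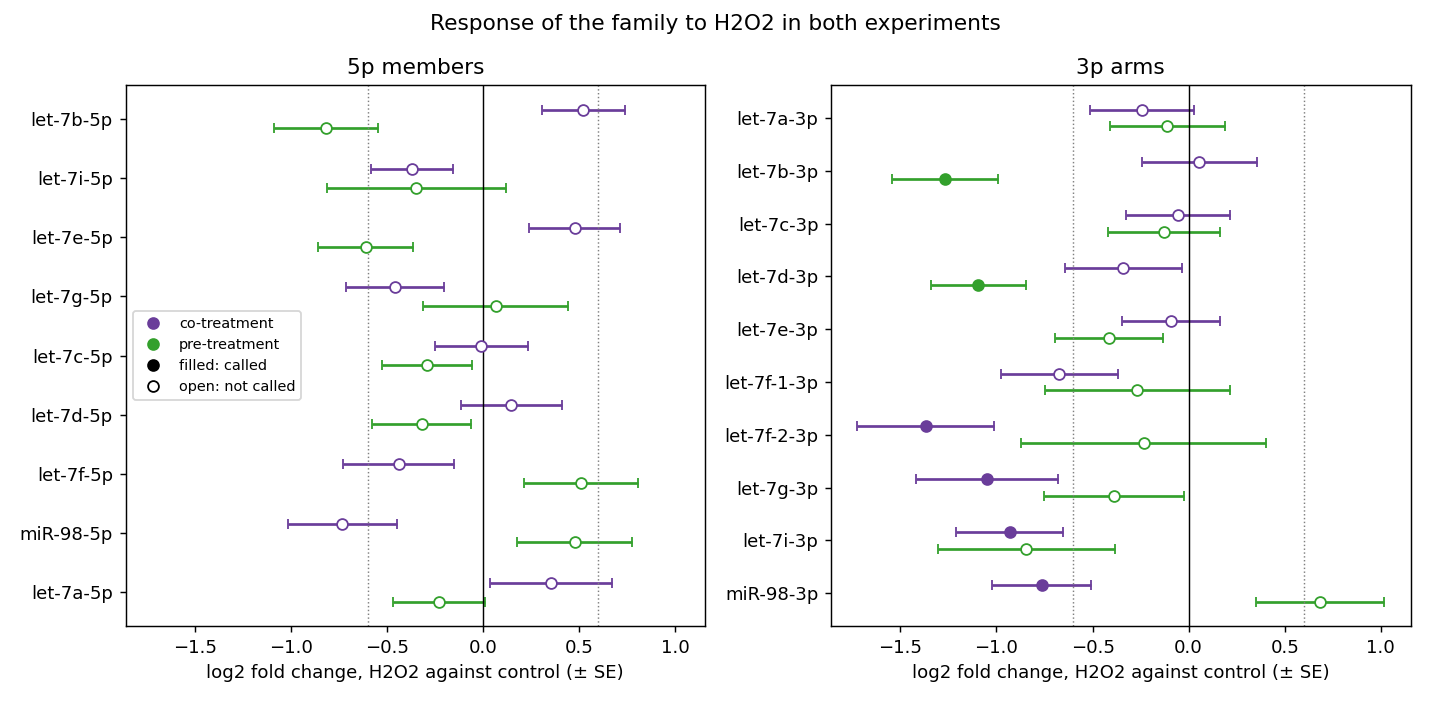
log2 fold change of H2O2 against control with its standard error, for the 9 members (left) and the 10 tested 3p arms (right), in co-treatment (purple) and pre-treatment (green). Filled points were called at an FDR under 0.05 and an absolute log2FC above 0.6, the latter marked by dotted lines: none of the members, 4 of the 3p arms in co-treatment and 2 in pre-treatment.

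The 3p strands of the same hairpins were examined next. Of 11 listed, 10 were tested, and let-7a-2-3p was left out with at most 5 counts in any library. In co-treatment, 4 of the 10 fell, 0 rose and 6 were not called, whereas 15.6% of all miRNAs tested were called lower. Their median log2FC was -0.51, beside -0.04 for all miRNAs tested, and 9 of 10 values were negative. The sequences of the 3p strands that were called in either experiment, other than let-7f-2-3p, are given here from RefSeq, with bases 2 to 8 in capitals, since unlike the 5p strands they do not all share these bases. let-7b-3p and miR-98-3p have the same bases 2 to 8.
hsa-let-7b-3p: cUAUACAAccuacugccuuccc
hsa-let-7d-3p: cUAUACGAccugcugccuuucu
hsa-let-7g-3p: cUGUACAGgccacugccuugc
hsa-let-7i-3p: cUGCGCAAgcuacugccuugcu
hsa-miR-98-3p: cUAUACAAcuuacuacuuuccc

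let-7f-2-3p, from the X-linked hairpin beside MIR98, fell the most. It was at 193, 118 and 362 CPM in controls and 82.9, 112 and 66.3 CPM with H2O2, so that all H2O2 libraries were below all controls (log2FC -1.37 ± 0.36, FDR 0.00233). let-7i-3p was at 386, 282 and 450 CPM in controls and 180, 238 and 169 CPM with H2O2 (-0.93 ± 0.28, FDR 0.0107). miR-98-3p had the smallest spread, with 105, 98.0 and 110 CPM in controls and 67.0, 61.0 and 56.1 CPM with H2O2 (-0.76 ± 0.26, FDR 0.0248). The groups of let-7i-3p and miR-98-3p did not overlap either, whereas those of let-7g-3p did, at 44.9, 35.0 and 69.1 CPM in controls and 17.5, 40.5 and 14.3 CPM with H2O2 (-1.05 ± 0.37, FDR 0.0287). The 4 calls depended on single libraries: without control 3, 0 of the 10 arms were called, and without control 1, H2O2 replicate 1 or H2O2 replicate 3, 1 arm was called. In these 4 fits 6.18% to 8.80% of all miRNAs tested were called lower.

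For miR-98 both strands of 1 hairpin lay in the same direction in co-treatment, with a log2FC of -0.73 for the 5p and -0.76 for the 3p strand. The MIR98 hairpin is shown with its mature strands in capitals, first the 5p and then the 3p strand.
MIR98: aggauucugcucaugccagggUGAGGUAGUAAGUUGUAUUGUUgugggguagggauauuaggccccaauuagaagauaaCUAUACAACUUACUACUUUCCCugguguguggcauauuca

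The 5p to 3p ratio of miR-98 was 14.1 ± 3.50 in co-treatment controls and 14.4 ± 4.92 with H2O2 (SD, n = 3 each). The corresponding ratios of let-7i were 76.5 ± 25.0 and 112 ± 31.3, and those of let-7b were 410 ± 240 and 507 ± 45.6, so that the 5p strand dominated throughout. let-7d had the lowest ratio, 11.7 ± 8.95 in co-treatment controls.

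In pre-treatment 2 of the 10 tested 3p arms fell, 0 rose and 8 were not called, whereas 9.91% of all miRNAs tested were called lower and 5.41% higher. let-7b-3p was at 201 and 155 CPM in controls and 71.1, 71.0 and 80.0 CPM with H2O2 (log2FC -1.27 ± 0.28, FDR 0.0135). let-7d-3p was at 396 and 375 CPM in controls and 172, 190 and 180 CPM with H2O2 (-1.09 ± 0.25, FDR 0.0188). For both, every H2O2 library was below both controls, and the quasi-likelihood test gave FDRs of 0.0559 and 0.0560 and called neither. Without any 1 of the 3 H2O2 libraries, the exact test called 0 of the 10 arms and 1.08% to 1.91% of all miRNAs tested. The median log2FC of the 3p arms was -0.33, beside -0.19 for all miRNAs tested. miR-98-3p was the only 3p arm with a positive value (0.68 ± 0.33, FDR 0.309), at 25.4 and 36.3 CPM in controls and 44.5, 45.0 and 59.0 CPM with H2O2. let-7f-2-3p again separated the controls, at 31.7 and 183 CPM, with the H2O2 libraries at 84.6, 86.1 and 103 CPM between them.

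**Figure D4:**
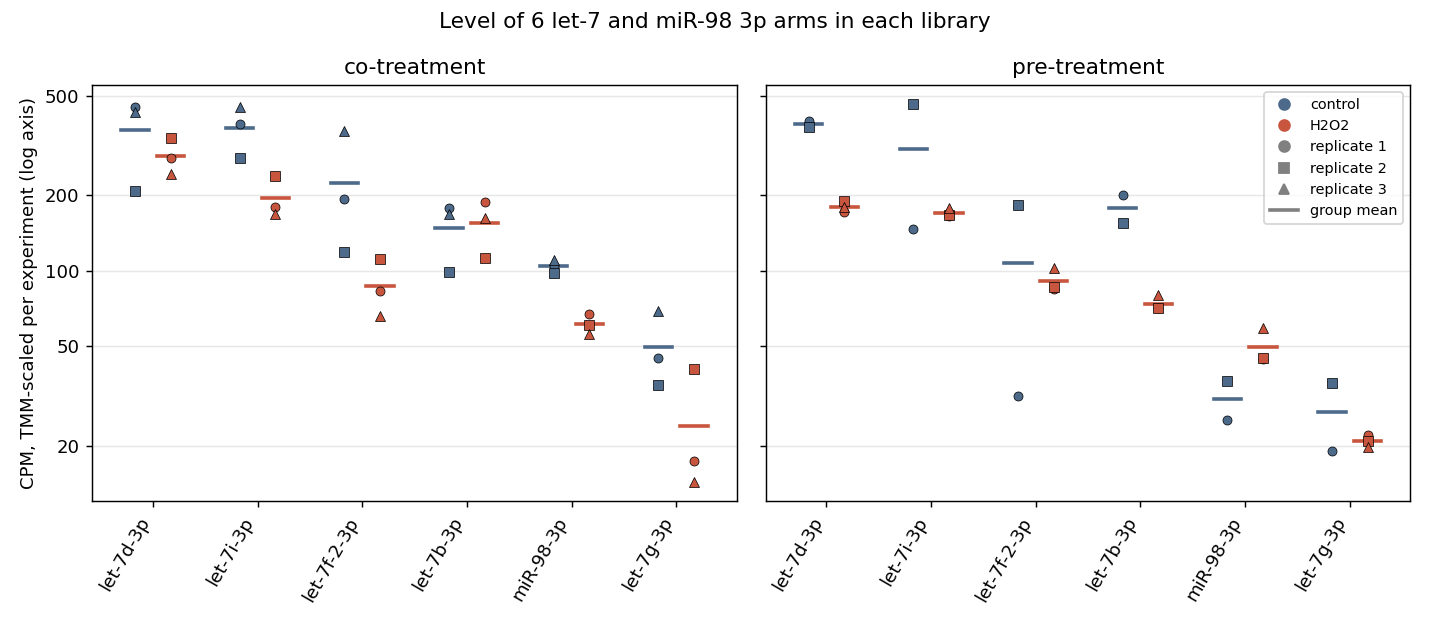
Level of the 6 called 3p arms in each library, in CPM after TMM scaling within an experiment on a log axis, drawn as for the members. In co-treatment miR-98-3p stands at 98.0 to 110 CPM in controls and 56.1 to 67.0 CPM with H2O2, and in pre-treatment let-7d-3p stands at 375 to 396 CPM and 172 to 190 CPM.

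The difference of the 2 responses was tested as an interaction, pre-treatment minus co-treatment, in 1 quasi-likelihood fit of all 11 libraries. It passed an FDR of 0.05 for 3 of the 9 members and 2 of the 10 3p arms, beside 265 of 894 miRNAs (29.6%), a share near that of the members. A positive difference was called for 13.6% of all miRNAs tested and a negative one for 16.0%. let-7b-5p differed by -1.39 ± 0.34 on the log2 scale (FDR 0.00916) and let-7e-5p by -1.13 ± 0.34 (FDR 0.0231). Both had positive values in co-treatment and negative values in pre-treatment. miR-98-5p differed by 1.18 ± 0.42 (FDR 0.0448), with signs the other way. Both strands of let-7b and of miR-98 differed in the direction of their partner strand, let-7b-3p by -1.34 ± 0.46 (FDR 0.0406) and miR-98-3p by 1.44 ± 0.40 (FDR 0.0163). Leaving out each of the 11 libraries in turn, let-7b-5p passed the threshold in 10 of 11 fits, miR-98-3p in 9, let-7e-5p in 8, let-7b-3p in 4 and miR-98-5p in 2. let-7b-5p missed it without the co-treatment H2O2 replicate 3 (-1.17, FDR 0.0523). For the other 6 members the differences ranged from -0.64 to 0.93 with FDRs of 0.120 or more. let-7i-5p was at 0.03 ± 0.46, an error too wide to show a like response. A batch between the experiments cannot be told apart from the experiment, but each response is measured within its own experiment.

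The response also moved with base composition among all miRNAs, and the members with the fewest and the most G or C bases had opposite signs. The 9 members hold 7 to 10 G or C bases: 7 in let-7f-5p and miR-98-5p, 8 in let-7a-5p and let-7g-5p, 9 in let-7c-5p, let-7d-5p, let-7e-5p and let-7i-5p, and 10 in let-7b-5p. In co-treatment the log2FC was negative for both members with 7 and highest for the member with 10, and in pre-treatment it was highest for the 2 members with 7 and lowest for the member with 10. The members between these were not in order in co-treatment. Those with 8 were at 0.35 (let-7a-5p) and -0.46 (let-7g-5p), and those with 9 ranged from -0.37 (let-7i-5p) to 0.48 (let-7e-5p). In pre-treatment those with 8 were at -0.23 and 0.07, and those with 9 ranged from -0.61 to -0.29. Over all tested miRNAs with a sequence, the median log2FC in co-treatment was -0.86 for 131 miRNAs of at most 40% GC, -0.20 for 258 above 40% and up to 50%, and 0.47 for 311 above 50%. In pre-treatment these medians were 0.59 (n = 134), 0.10 (n = 274) and -0.71 (n = 360).

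When each library's trend on GC content was taken out with an offset, the members' values changed. In co-treatment let-7b-5p (log2FC 0.75 ± 0.21, FDR 0.0443) and let-7e-5p (0.98 ± 0.24, FDR 0.0307) were called, beside 6.71% of all miRNAs in that fit, and miR-98-5p was at 0.13 ± 0.28. let-7g-3p (-1.60, FDR 0.0307) and let-7i-3p (-1.39, FDR 0.0202) kept their calls, and miR-98-3p was at -0.07 (FDR 0.900). In pre-treatment 0 members and 0 of the 3p arms were called, beside 0.260% of all miRNAs in that fit, and let-7f-5p and miR-98-5p were at -0.04 and -0.08. The difference between the experiments, past the threshold for 9.33% of all miRNAs in that fit, remained so for let-7b-5p (-1.81, FDR 0.0197) and let-7e-5p (-1.90, FDR 0.0135), was also past it for let-7a-5p (-1.72, FDR 0.0390), and was -0.16 for miR-98-5p (FDR 0.815). let-7f-2-3p has no value in this fit.

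**Figure D5:**
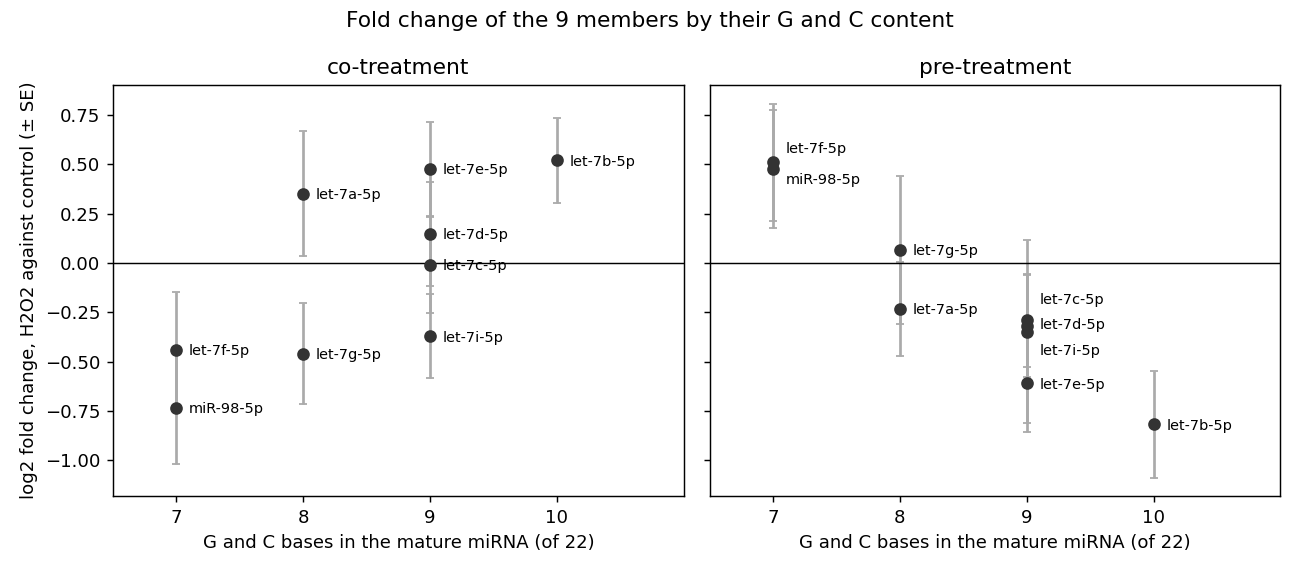
log2 fold change of H2O2 against control, with its standard error, against the number of G and C bases in the 22 nt of each member, for co-treatment (left) and pre-treatment (right). let-7b-5p, with 10 such bases, is at 0.52 and -0.82, and miR-98-5p, with 7, is at -0.73 and 0.48.

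Several members share a primary transcript with other miRNAs, and 11 of 13 such partners were tested, all of the miR-99, miR-100 and miR-125 families. The 2 strands of miR-4763, with at most 7 counts in any library, were not tested. In co-treatment 1 of the 11 rose, 0 fell and 10 were not called, whereas 10.6% of all miRNAs tested were called higher. This was miR-99b-5p, which is transcribed with let-7e and miR-125a on chromosome 19, at 14012, 19937 and 15591 CPM in controls and 31471, 21037 and 29859 CPM with H2O2 (log2FC 0.73 ± 0.23, FDR 0.0354). In pre-treatment 2 fell and 9 were not called, beside 9.91% of all miRNAs called lower. The quasi-likelihood test called 0 of the 11, beside 1.96% of all miRNAs tested. Both partners that fell came from the same locus. miR-99b-5p was at 52654 and 37498 CPM in controls and 19966, 18990 and 16130 CPM with H2O2 (-1.30 ± 0.27, FDR 0.00491), and miR-125a-3p was at 304 and 196 CPM in controls and 117, 118 and 80.8 CPM with H2O2 (-1.25 ± 0.33, FDR 0.0241). Their partner let-7e-5p had values of the same sign in each experiment without being called. miR-99b-3p, the other strand of the miR-99b-5p hairpin, lay the other way in pre-treatment. It was at 724 and 848 CPM in controls and 1088, 1002 and 968 CPM with H2O2 (log2FC 0.38 ± 0.25). Its groups did not overlap, and it was not called. miR-125a-5p, the most abundant miRNA of this locus, had a wider gap between the pre-treatment controls than miR-99b-5p or let-7e-5p, at 138757 and 28951 CPM. The call of miR-99b-5p in co-treatment was lost with the GC offset (0.18, FDR 0.653). In pre-treatment the quasi-likelihood test already missed it without the offset (FDR 0.0520), and with the offset miR-99b-5p was at -0.77 (FDR 0.104).

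Outside the family, 2 mature miRNAs in RefSeq carry the same bases 2 to 8, miR-4458 and miR-4500. miR-4458 had at most 10 counts in any library and miR-4500 had 0 counts in all 11, which allows up to 3 counts in each, so the seed was carried almost entirely by the 9 members in these libraries. In a search for miRNAs of like level, all 11 libraries were scaled together, so a difference between the experiments, a batch included, enters the likeness. Among 180 other miRNAs of at least 100 CPM, the log2 level over the 11 libraries was closest to that of the family's sum for miR-191-3p, with a mean absolute difference of 0.14, then miR-361-3p (0.21) and miR-25-3p (0.21). The family's own mean absolute deviation from its average was 0.23, so the likeness of the last 2 was hardly nearer than a constant level would be.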

How the data were processed

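Small RNA of SH-SY5Y cells was read in 11 libraries (QIAseq miRNA kit, NextSeq 500), grouped by their labels. Per the labels and the methods, FastQC 0.11.8 served for quality control, cutadapt 2.10 for adapter removal, Bowtie2 2.4.1 for alignment to hg19 and HTSeq 0.7.2 for counting. The authors deposited the count of each mature miRNA without normalization. The miRBase release, the use of molecular identifiers and the handling of reads that match several hairpins are not given in the sources used here. The authors also deposited tables of their own comparisons (log2 fold changes, mean log2 CPM, p-values and FDR), which were not used.

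Each H2O2 group was tested against its own controls by edgeR's exact test (edgeR 4.0.16, R 4.3.3) after TMM scaling. A miRNA entered the test if it exceeded the CPM that 5 counts give in the smallest library, which was 0.936 in 3 or more co-treatment libraries and 0.721 in 2 or more pre-treatment libraries. Benjamini-Hochberg adjustment ran over all 790, 868 or 894 miRNAs tested. Standard errors come from the quasi-likelihood fit, which also gave the difference between the experiments. The study describes biological triplicates, so p-values refer to cultures. GC content came from RefSeq mature sequences for 88.6% and 88.5% of the miRNAs tested, and each library's lowess trend (span 0.5) served as an offset. The alternatives were DESeq2 1.42.0, its size factors, library size, other filters, both experiments in one fit, a replicate block, the GC offset and each library left out. The GC offset in the fit of all 11 libraries, the fits on only the miRNAs with a GC value and the quasi-likelihood fits with 1 pre-treatment control were chosen after seeing the data. The exact test, DESeq2, the interaction fit and the quasi-likelihood test, alone, with the replicate block and with the GC offset, were run on simulated counts. These counts had a common dispersion and no GC trend, and the other alternatives were not simulated. Values described are those of the 9 members, their 3p arms, the miRNAs transcribed beside them and those sharing the seed. Members and lists were chosen with earlier results of these data known. Limits from counts cover counting error only.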

Additional observations from a re-analysis of the deposited data

Results flagged for a closer look

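The response to H2O2 differed between the experiments for 3 members and 2 of their 3p arms, by the interaction test over all 11 libraries (pre-treatment minus co-treatment, log2 scale), which 29.6% of all 894 miRNAs tested also passed. For let-7b-5p the difference was -1.39 (FDR 0.00916), from 0.57 in co-treatment to -0.83 in pre-treatment, both in the fit of all 11 libraries. For let-7e-5p it was -1.13 (FDR 0.0231), from 0.52 to -0.60 in the same fit. With the GC offset these differences were -1.81 (FDR 0.0197) and -1.90 (FDR 0.0135), beside 9.33% of all miRNAs in that fit past the threshold.

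The differences of let-7b-3p, -1.34 (FDR 0.0406), miR-98-5p, 1.18 (FDR 0.0448), and miR-98-3p, 1.44 (FDR 0.0163), did not pass the threshold with the GC offset, at -1.16 (FDR 0.113), -0.16 (FDR 0.815) and 0.34 (FDR 0.531). miR-98-5p passed it in 2 of 11 fits with a library left out, and its value there lay between 0.94 and 1.51.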

How the results depend on the processing

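When single libraries were left out, the number of members called ranged from 0 to 2 in co-treatment, from 0 to 5 in pre-treatment and from 1 to 6 for the difference between the experiments, and the number of 3p arms called from 0 to 5, from 0 to 5 and from 0 to 4. In co-treatment, the fits without 1 library called 12.5% to 31.6% of all miRNAs tested. In pre-treatment, those without an H2O2 library called 0 members and 0 arms, beside 1.08% to 1.91% of all miRNAs tested. Those with a single control left are described above with their shares. Over all fits without 1 library, the log2 ratio of the summed family level ranged from 0.10 to 0.36 in co-treatment and from -0.63 to -0.44 in pre-treatment. The direction of some members turned in these fits, with ranges in co-treatment of -0.15 to 0.30 for let-7c-5p, in pre-treatment of -0.31 to 1.05 for let-7g-5p, -0.24 to 0.059 for let-7a-5p, -0.28 to 0.058 for let-7c-5p, -0.39 to 0.13 for let-7d-5p and -0.85 to 0.98 for let-7i-5p, and for the difference of -0.53 to 0.99 for let-7i-5p and -0.52 to 0.0087 for let-7c-5p. The quasi-likelihood test without pre-treatment control 1 gave let-7g-5p at -0.31. Without control 2 it gave let-7a-5p at 0.059, let-7c-5p at 0.058, let-7d-5p at 0.13 and let-7i-5p at 0.98.

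A filter passed in every library gave 1 member in co-treatment, let-7b-5p at 0.72 (FDR 0.0341), and 2 in pre-treatment, with let-7g-5p at -0.057 there and the difference of let-7i-5p at -0.22. Both experiments in one fit gave 1 member in pre-treatment and 0 arms in co-treatment. Library size scaling gave 2 arms in co-treatment. For pre-treatment arms, the quasi-likelihood test and no filter on low counts each gave 0. The quasi-likelihood test called 1.96% of all miRNAs tested there. let-7c-5p, near 0 in co-treatment, was at 0.036 with DESeq2 and with its size factors, 0.076 with library size scaling, 0.055 with no filter on low counts, 0.19 with the filter in every library and 0.031 in one fit of both experiments. The fit of the miRNAs with a GC value gave 2 arms in co-treatment and 0 in pre-treatment. The GC offset gave 2 members and 2 arms in co-treatment, beside 6.71% of all miRNAs in that fit. It gave 0 arms in pre-treatment and 0 arms for the difference, beside 0.260% and 9.33%. It turned let-7c-5p to 0.49, let-7f-5p to 0.43, let-7g-5p to 0.23, let-7i-5p to 0.13 and miR-98-5p to 0.13 in co-treatment, let-7f-5p to -0.035, let-7g-5p to -0.31 and miR-98-5p to -0.076 in pre-treatment, and the difference to -0.42 for let-7f-5p, -0.48 for let-7g-5p, -0.61 for let-7i-5p and -0.16 for miR-98-5p. The cause of these moves was not tested. Where no share of all miRNAs stands beside a count in this section, the count is not a result about the family alone.

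Whether equal replicate numbers mark paired samples could not be decided from the counts. The deviations of same-numbered libraries from their group means correlated at 0.04, -0.16 and -0.16 in co-treatment and at 0.22 and -0.05 in pre-treatment. In groups this small the deviations constrain each other, and those of the 2 pre-treatment controls are mirror images. With the replicate block, 0 arms were called in either experiment, and 0 members and 0 arms for the difference, where the block gave let-7b-5p -1.34 (FDR 0.0610), let-7e-5p -1.05 (FDR 0.138) and miR-98-5p 1.32 (FDR 0.0948). With the GC offset and the replicate block, 0 arms were called in either experiment, with let-7c-5p at 0.46, let-7f-5p at 0.41, let-7g-5p at 0.18, let-7i-5p at 0.13 and miR-98-5p at 0.13 in co-treatment and let-7g-5p at -0.23 in pre-treatment. Over all results and alternatives, 187 values in co-treatment, 171 in pre-treatment and 140 of the difference kept their direction and their side of the threshold. Others kept their direction but crossed the threshold: 38, 27 and 30 lost a call and 5, 15 and 4 gained one. A further 19, 15 and 13 turned direction. Every member had at least 3167 counts in each library, and the pre-treatment comparison rests on 2 controls.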
